A study of Homo sapiens with 4 samples.

Results

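The genes described here are 3 receptors of the ERBB family (EGFR, ERBB2 and ERBB3), 6 ligands that carry an EGF-like fold (NRG1, EREG, BTC, HBEGF, TGFA and AREG) and the intracellular inhibitor ERRFI1. These 10 genes were taken by symbol from a table of 19402 rows of read counts, and all 10 were found there. The counts come from A549, an established human lung adenocarcinoma line, in which NUPR1 (p8, a small stress-induced chromatin protein) had been knocked down, and from control A549 cells. Polyadenylated RNA gave 4 libraries, 2 per group, 1 of them sequenced single-end and 1 paired-end, but the deposited table has 1 column per group. The sources used here do not give the knockdown reagent, its duration, the control reagent or the number of cultures. Every value below is therefore a single value per group, without a replicate, and the conditions were not tested against each other.

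ERBB receptors are transmembrane tyrosine kinases that pair with each other when a ligand binds, and their paired kinases feed the RAS-ERK and PI3K-AKT relays. EGFR binds EREG, BTC, HBEGF, TGFA and AREG, ERBB3 binds NRG1 but has little kinase activity of its own, and ERBB2 has no known ligand and serves as the favoured partner of the others. The ligands are made as membrane proteins that proteases of the ADAM family cut free. ERRFI1, also called MIG6, is induced downstream of these receptors and binds and inhibits their kinase domains. In lung epithelium this family controls growth and repair, and in lung adenocarcinoma EGFR and ERBB2 are recurrent oncogenes.

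The EGF-like ligands share a stretch that holds 6 cysteines, which pair to form the receptor-binding fold, and the coding sequence of that stretch is shown because it is what defines these genes as a family. A search of the transcripts of 19669 protein-coding genes (GENCODE release 29) for 6 cysteine codons separated by 7, 4, 10, 1 and 8 codons found a match in 16 genes, or 0.0813%. Of the 10 genes described here 5 matched, which was set in advance, since the spacing searched for is that of these ligands. The search read whole transcripts in any frame, so a match in another gene need not encode cysteines. In the sequences, read 5′ to 3′ on the coding strand, the cysteine codons are in capitals.
TGFA: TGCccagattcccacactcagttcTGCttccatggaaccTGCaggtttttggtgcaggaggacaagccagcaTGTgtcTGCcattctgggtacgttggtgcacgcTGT
EREG: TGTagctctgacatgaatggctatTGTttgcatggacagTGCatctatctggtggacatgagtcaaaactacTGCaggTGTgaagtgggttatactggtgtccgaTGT
AREG: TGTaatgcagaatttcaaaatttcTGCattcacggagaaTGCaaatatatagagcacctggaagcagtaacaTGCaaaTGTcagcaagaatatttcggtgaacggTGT
BTC: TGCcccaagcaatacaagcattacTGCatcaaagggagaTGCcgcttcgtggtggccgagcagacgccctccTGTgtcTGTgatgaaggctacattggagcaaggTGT
HBEGF: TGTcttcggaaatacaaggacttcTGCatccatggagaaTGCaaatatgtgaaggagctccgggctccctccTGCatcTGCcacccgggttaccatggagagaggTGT
Each stretch is 108 bases or 36 codons long, so they align without gaps. Between pairs of these ligands 46.3% (TGFA and EREG) to 63.0% (TGFA and BTC) of the bases were the same. NRG1, the remaining ligand, had no match to this spacing, which describes these letters only.

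Of the 10 genes, EREG, AREG and BTC lie on chromosome 4, EGFR on chromosome 7, ERBB2 on 17, ERBB3 on 12, NRG1 on 8, HBEGF on 5, TGFA on 2 and ERRFI1 on 1, per RefSeq on GRCh38.p14. The tables use hg19 and give no coordinates. AREG has a near-identical second copy in hg19, AREGB, which RefSeq now lists as a synonym of AREG. Reads from the AREG transcript could be placed on either copy or dropped, so its level here is uncertain. The strand setting is not given, and in GENCODE release 29 ERBB2 overlaps MIEN1 and PGAP3, and EGFR overlaps EGFR-AS1, on the opposite strand.

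The deposited reads came to 16649863 with knockdown and 20299441 without. CPM, reads per 1000000 reads of a TMM-adjusted total, serve to compare the columns, and deposited RPKM, which also divide by gene length, to compare genes. The intervals are 95% intervals for counting error only and say nothing of variation between cultures. The targeted gene, NUPR1, had 71 reads with knockdown and 197 in control cells (log2 ratio -1.21, -1.63 to -0.81), the direction its labels give. Of 10 A549 epithelial markers all had reads, with KRT8, KRT18 and ALDH1A1 between 8071 and 13643 CPM in the control column, whereas KRT19 and EPCAM were at 2.29 and 4.18 CPM. CDH1, the gene of E-cadherin, was 1.66-fold higher in the knockdown column. Of 14 markers of leukocytes, fibroblasts, endothelium and red cells 13 were found, with at most 27 reads in either column. Their levels summed to 6.79 CPM with knockdown and 4.58 CPM in control cells. Of the endothelial markers, CDH5 had 18 reads with knockdown against 3 (log2 ratio 2.84, 1.07 to 5.25), VWF had 10 against 6 and PECAM1 had 0 against 2. CDH5, singled out after its value was seen, was the only marker of another cell type whose interval lay off equal levels. The part of these markers in the results below was not tested.

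Among the family's genes with enough reads to be counted, ERBB3 differed most between the columns and was higher with knockdown. EGFR, NRG1 and EREG were lower by small amounts, ERRFI1 was slightly higher, and the interval of ERBB2 included equal levels. Of the 10 genes, 9 passed the filter on low counts and 6 had a mean of at least 5 CPM. Of these 6, ERBB3 alone was at least 1.5-fold away from equal levels, and it was also past 2-fold. Among all 10689 genes at that level, 8.17% were past 1.5-fold in either direction and 2.12% past 2-fold, so 1 of 6 genes is not a count that sets the family apart. The counting interval lay off equal levels for 5 of the 6, 2 higher and 3 lower, against 54.3% of all genes at that level (27.9% higher and 26.4% lower). Since the RNA is from bulk cells, fewer cells that transcribe a gene and less RNA per cell cannot be told apart.

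**Figure D1:**
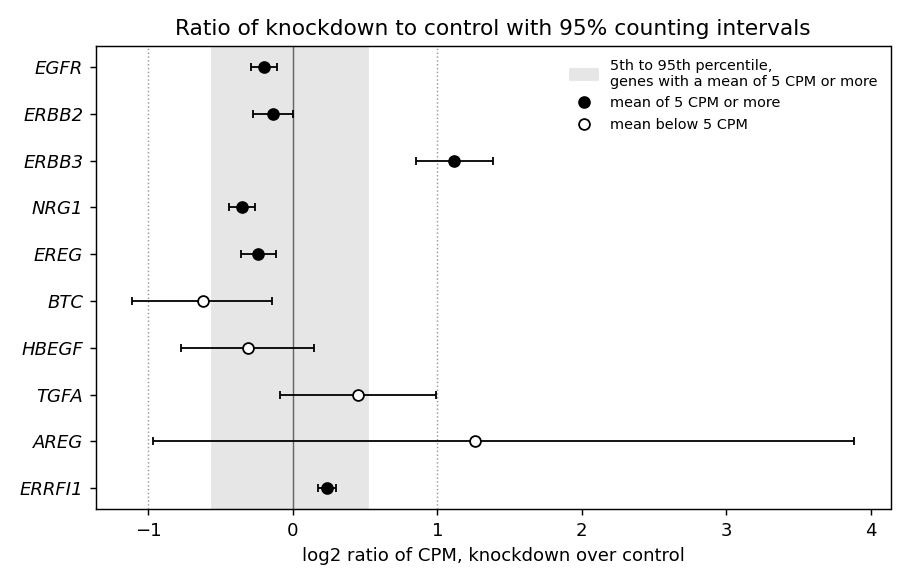
The log2 ratio of CPM, knockdown over control, for each gene, with 95% counting intervals as bars, filled points for genes with a mean of 5 CPM or more and open points for those below. The grey band spans the 5th to 95th percentile of all genes with a mean of 5 CPM or more (-0.56 to 0.52) and the dotted lines mark 2-fold. ERBB3, at 1.12, is the only filled point outside the band, and the wide bar of AREG rests on 6 and 3 reads.

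Among the receptors, EGFR had the most reads. EGFR had 1783 reads with knockdown and 2449 in control cells, or 106 CPM (101 to 111) against 122 CPM (117 to 127). The knockdown value was lower and the intervals did not overlap, with a log2 ratio of -0.20 (-0.29 to -0.11), or 1.15-fold lower. In rank this was the 2439th lowest ratio of the 10689 genes, well inside the range that most genes covered.

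ERBB2, the receptor without a ligand, had 763 and 1003 reads, which is 45.4 CPM (42.3 to 48.8) with knockdown and 49.9 CPM (46.9 to 53.1) in control cells. These intervals overlapped, and the log2 ratio of -0.14 (-0.27 to 0.0018) reached equal levels at its upper bound. A difference in ERBB2 was thus not detectable at this depth, and a fall of more than 0.27 on the log2 scale lay outside its counting interval.

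ERBB3, which pairs with ERBB2 after binding NRG1, had 337 reads in the knockdown column against 186 in the control column. Its level was 20.1 CPM (18.0 to 22.3) with knockdown and 9.25 CPM (7.97 to 10.7) in control cells, with no overlap of the intervals. The log2 ratio was 1.12 (0.85 to 1.38), a 2.17-fold higher level, and the 73rd highest ratio of the 10689 genes. Of these genes, 0.992% were past 2-fold in that direction. With all counts halved, as if both mates of a pair had been counted throughout, the interval widened to 0.74 to 1.49. Single-end reads have no mate, so this is an upper bound on that widening. On the scale of log2(RPKM + 1) the difference of ERBB3 was 0.74, under 2-fold, because ERBB3 is a long gene (7481 bases) with a low RPKM.

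The contrast between ERBB3 and the other receptors does not depend on how the columns were scaled. Per length, ERBB3 stood at 0.0813 of the EGFR level in the control column and at 0.203 of it in the knockdown column. This ratio of ratios was 2.49 (2.05 to 3.02), and against ERBB2 it was 2.38 (1.94 to 2.93). EGFR against ERBB2 was 0.957 (0.854 to 1.07), an interval that includes equal proportions. Of the summed RPKM of the 3 receptors, ERBB3 made up 4.99% in the control column and 11.4% in the knockdown column, EGFR 61.4% and 56.4%, and ERBB2 33.6% and 32.2%. The sum itself was 24.8 RPKM in the control column and 24.1 RPKM in the knockdown column.

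**Figure D2:**
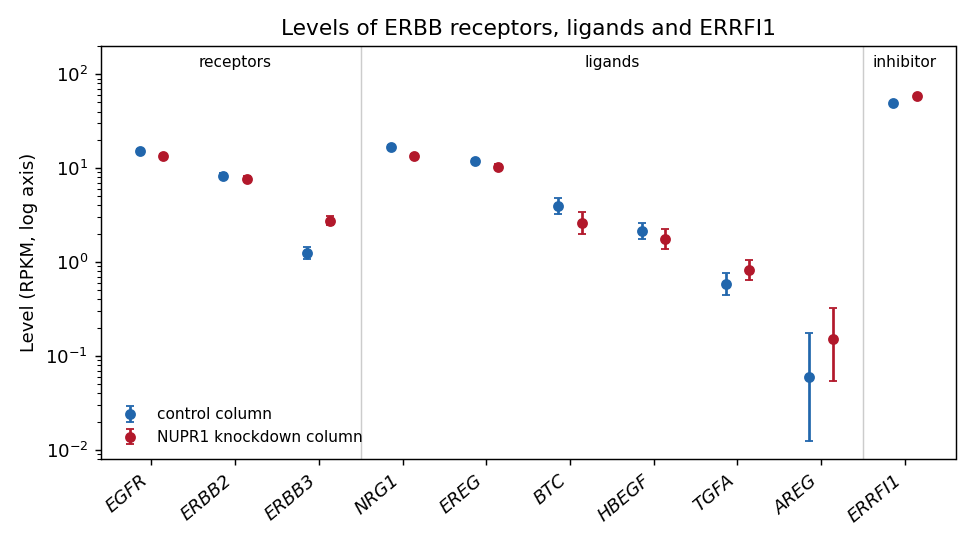
Deposited RPKM of each gene in the control column (blue) and the knockdown column (red) on a log axis, with 95% counting intervals as bars. ERRFI1 is the highest in both columns, at 49.0 and 58.9 RPKM, AREG the lowest, and ERBB3 the receptor with the widest gap between the columns, 1.24 against 2.75 RPKM.

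Both abundant ligands were lower in the knockdown column. NRG1, the neuregulin that binds ERBB3, had 1737 reads with knockdown and 2654 in control cells, or 103 CPM (98.6 to 108) against 132 CPM (127 to 137). Its intervals lay apart, with a log2 ratio of -0.35 (-0.44 to -0.26), or 1.28-fold lower. This was the 1249th lowest ratio of 10689, and so the ligand of ERBB3 and ERBB3 itself lay on opposite sides of equal levels. Read for read, NRG1 over ERBB3 was 0.361 (0.297 to 0.438) of its control value in the knockdown column, and the RPKM of NRG1 was 4.92 times that of ERBB3 with knockdown and 13.6 times in control cells.

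EREG, epiregulin, a ligand of EGFR and ERBB4, had 928 reads against 1310, which is 55.3 CPM (51.8 to 58.9) with knockdown and 65.2 CPM (61.7 to 68.8) in control cells. The knockdown value was again the lower, without overlap of the intervals, and the log2 ratio was -0.24 (-0.36 to -0.12). Relative to EREG, NRG1 was at 0.924 (0.832 to 1.03) of its control value, an interval that includes equal proportions.

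BTC, HBEGF and TGFA, which all bind EGFR, passed the filter on low counts but had means of 4.31, 4.54 and 3.35 CPM, just under the 5 CPM used for counting genes. BTC, betacellulin, had 57 reads against 105, or 3.39 CPM (2.57 to 4.40) with knockdown and 5.22 CPM (4.27 to 6.32) in control cells. Its ratio was 1.54-fold lower, with a log2 value of -0.62 (-1.11 to -0.14), although the intervals of the levels overlapped. With all counts halved in the same way, the interval of BTC ran from -1.35 to 0.06 and included equal levels. Because single-end reads have no mate, this too is an upper bound, and a smaller widening was not computed. Over all 14175 genes measured, which include many with few reads, 9.07% were at least 1.5-fold lower.

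HBEGF, a heparin-binding ligand, had 68 reads against 101, with a log2 ratio of -0.31 (-0.78 to 0.15). TGFA had 65 reads against 57, with a log2 ratio of 0.45 (-0.09 to 0.99), and was the only ligand that passed the filter with a higher value in the knockdown column. Neither interval excluded equal levels, so no difference in HBEGF or TGFA was detectable at this depth. Relative to EREG, TGFA was 1.61 (1.10 to 2.36) times its control value. BTC relative to EREG was 0.766 (0.539 to 1.08), and HBEGF 0.950 (0.680 to 1.32), intervals that include equal proportions.

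AREG, amphiregulin, had 6 reads with knockdown and 3 in control cells. A log2 ratio of 1.26 (-0.97 to 3.89) is not informative, and the second copy of the gene in hg19 makes the level itself uncertain. AREG was the gene that did not pass the filter on low counts.

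Together the 6 ligands summed to 29.2 RPKM in the knockdown column and 35.6 RPKM in the control column. NRG1 made up 46.3% and 47.5% of these sums, EREG 35.3% and 33.5%, and BTC 9.00% and 11.1%. HBEGF, TGFA and AREG made up the rest, and the order of the 6 ligands was the same in both columns.

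ERRFI1, the inhibitor, was the most abundant of the 10 genes. It had 3905 reads with knockdown and 3970 in control cells, which is 233 CPM (225 to 240) against 198 CPM (191 to 204). The knockdown column was higher, with no overlap, at a log2 ratio of 0.24 (0.17 to 0.30), which was the 2123rd highest ratio of the 10689 genes. While EGFR was lower, the RPKM of ERRFI1 was 4.34 times that of EGFR in the knockdown column and 3.21 times in the control column, a ratio of ratios of 1.35 (1.25 to 1.46).

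Ordered by RPKM, the control column ran ERRFI1, NRG1, EGFR, EREG, ERBB2, BTC, HBEGF, ERBB3, TGFA and AREG, and the counting intervals of neighbours overlapped in none of the 9 neighbouring pairs. In the knockdown column NRG1 and EGFR stood level at 13.5 and 13.6 RPKM with overlapping intervals, and ERBB3 moved from eighth to sixth. ERBB3 at 2.75 RPKM (2.46 to 3.05) and BTC at 2.63 RPKM (1.99 to 3.40) did not differ beyond counting error there, with a ratio of 1.05 (0.788 to 1.41). The intervals of BTC and HBEGF, which was at 1.76 RPKM (1.36 to 2.23), also overlapped, but the ratio of BTC to HBEGF was 1.49 (1.03 to 2.16), an interval that excludes equal levels.

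**Figure D3:**
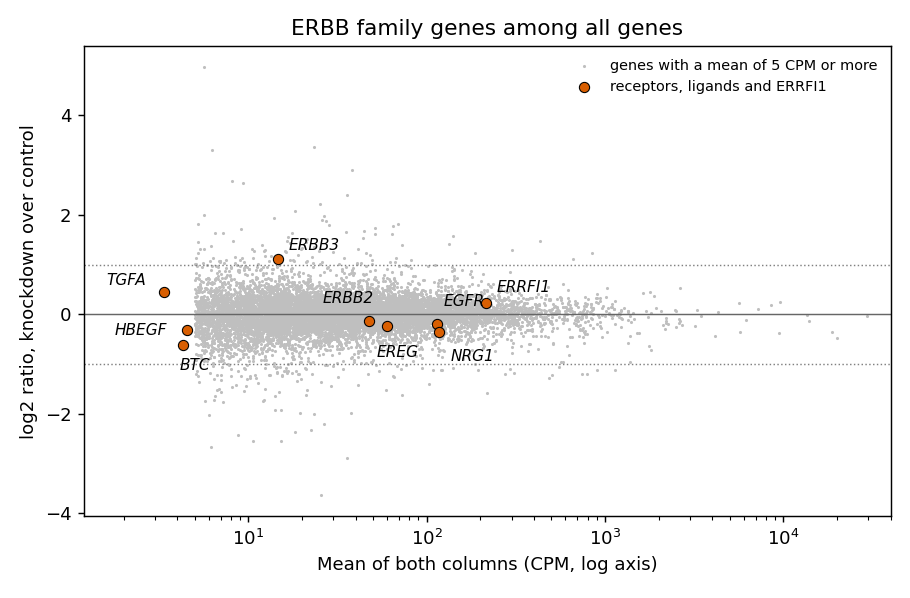
Each grey point is 1 of 10689 genes whose mean was 5 CPM or more, by its mean over both columns (CPM, log axis) and its log2 ratio of knockdown over control, with dotted lines at 2-fold. The orange points are the family genes except AREG, whose mean is 0.253 CPM. ERBB3 lies above the upper dotted line at a mean of 14.7 CPM and the other 5 family genes with a mean of 5 CPM or more lie between the dotted lines.

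The other members of the receptor and ligand families were scarce. ERBB4, the remaining receptor, had 17 reads against 6, a log2 ratio of 1.76 (0.35 to 3.39) at 0.09 and 0.02 RPKM. NRG2 had 84 reads against 116 (log2 ratio -0.21, -0.63 to 0.21), NRG4 had 84 in each column (0.26, -0.19 to 0.71), and EGF had 24 against 35 (-0.29, -1.10 to 0.51). EPGN had 3 reads in each column, and NRG3 had 0 against 5. NRG2 was the only gene of this group with a mean of 5 CPM, so it alone could be called, and it was under 1.5-fold. Of all genes at that mean, 8.17% were past 1.5-fold in either direction. ERBB4, whose interval lay off equal levels, had too few reads to be counted.

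Genes around the receptors were listed in 6 groups with 133 distinct symbols, of which 114 had a mean of 5 CPM. Past 1.5-fold were 4 upward and 5 downward, or 3.51% and 4.39% of them, against 3.72% and 4.44% of all genes at that level. The pathway genes as a whole were thus called about as often as any genes.

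Ligand shedding and processing divided evenly, 8 higher and 8 lower of 16, with a median log2 ratio of -0.0030. Of all genes with a mean of 5 CPM, 48.8% were lower. Past 1.5-fold were 1 upward and 2 downward of the 16, against 3.72% and 4.44% of all genes at that mean. ADAM19, a protease that sheds neuregulin in mouse, had 106 reads against 483, a log2 ratio of -1.93 (-2.25 to -1.62) or a 3.81-fold lower level. FURIN, the proprotein convertase that matures ADAM proteases, had 392 against 900 reads (-0.94, -1.11 to -0.77), and the convertase gene PCSK5 had 242 against 156 (0.89, 0.60 to 1.19). The main sheddases of EGFR ligands were higher by small amounts, with ADAM17 at 0.27 (0.18 to 0.36) and ADAM10 at 0.16 (0.09 to 0.23). TIMP3, an inhibitor of ADAM17, had 9 reads against 59 (-2.45, -3.65 to -1.43), at a mean under 5 CPM. Of the same list, RHBDF2, at -0.43 (-0.60 to -0.27), and NRD1, at -0.17 (-0.23 to -0.11), were lower. ADAM17, ADAM10, TIMP3, RHBDF2 and NRD1 were picked after their values were seen. Of all genes with a mean of 5 CPM, 27.9% had an interval above equal levels and 26.4% below.

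Receptor attenuation and trafficking held 30 genes with a mean of 5 CPM, 18 higher and 12 lower, with a median of 0.03. Over all genes at that mean, 48.8% were lower and 8.17% past 1.5-fold in either direction. The values of single genes of this group follow. SOCS5, which promotes EGFR degradation, was the only one of the 30 past 1.5-fold, at 606 against 1158 reads. Its log2 ratio was -0.68 (-0.82 to -0.53). LRIG1, a transmembrane protein that promotes degradation of ERBB receptors, had 108 reads against 67, a log2 ratio of 0.95 (0.49 to 1.41), but a mean of 4.88 CPM, just below 5 CPM, and it was picked after its value was seen. With totals that leave out the 10 most abundant rows its mean reached 5 CPM, which makes LRIG1 a second gene past 1.5-fold. The ubiquitin ligase genes CBL, of EGFR, and RNF41, of ERBB3, picked likewise, had 0.15 (-0.06 to 0.37) and 0.37 (0.18 to 0.57).

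In the relays downstream, 2 of 27 genes of the adaptors and RAS-ERK relay and 1 of 21 of the PI3K-AKT and STAT relay were past 1.5-fold. Of all genes with a mean of 5 CPM, 8.17% were past 1.5-fold in either direction and 48.8% were lower. Among adaptors and the RAS-ERK relay 14 of 27 were higher, with a median of 0.04. GRB7, an adaptor that binds ERBB2 and ERBB3, had 168 reads against 116 (0.79, 0.44 to 1.15), and GAB2, a docking protein for PI3K, had 290 against 217 (0.68, 0.42 to 0.94). In the PI3K-AKT and STAT relay 10 of 21 were higher, with a median of -0.01, and PIK3CD, a catalytic subunit of PI3K, had 72 reads against 142 (-0.72, -1.15 to -0.30). PIK3CD, at 4.29 CPM with knockdown, dropped out of the count when each column had to reach 5 CPM, and fell under 1.5-fold with log2 of RPKM plus 1.

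Genes that ERK signalling induces leaned lower. Of 19 with a mean of 5 CPM 15 were lower and 4 higher, with a median log2 ratio of -0.30, against 48.8% lower and a median of 0.0070 over all genes at that mean. With the 5 genes under 5 CPM included, 17 were lower and 7 higher, and the median was -0.20. This list was drawn up with earlier results on immediate early genes of these same columns known, so its direction is no independent evidence. Past 1.5-fold were ETV4, a transcription factor downstream of ERK, at 231 against 634 reads and -1.20 (-1.42 to -0.98), and DUSP5, a nuclear ERK phosphatase, at 984 against 477 reads and 1.30 (1.14 to 1.46). The rest lay under 1.5-fold, ERK phosphatase gene DUSP4 among them at -0.51 (-0.56 to -0.45), picked after its value was seen. Among all genes with a mean of 5 CPM, 8.17% were past 1.5-fold in either direction.

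**Figure D4:**
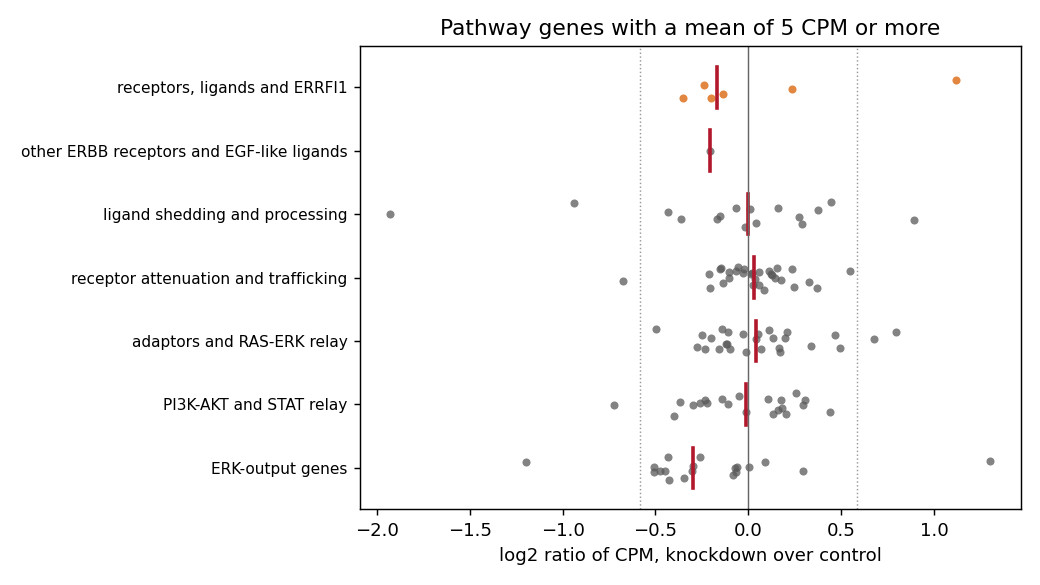
The log2 ratio of CPM, knockdown over control, of every listed gene with a mean of 5 CPM or more, by group, with the median of each group as a red bar and dotted lines at 1.5-fold. The ERK-output genes have the lowest median of the 5 larger pathway groups, -0.30 (-0.20 over all 24 measured), and ADAM19, at -1.93, is the point farthest to the left.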

How the data were processed

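The deposited count table gives read counts per gene and the deposited RPKM table gives RPKM, with 1 column per group. Per the submitters' processing notes, TopHat2 2.0.10, edgeR 3.2.2 and hg19 were used, with no role or order named. The sources used here do not give the counter, the annotation, the strand setting or how single-end and paired-end libraries were combined, which could weight transcripts differently. RPKM values above 1, checked only for genes above a minimum read count, equalled the deposited counts over gene length and 1 constant per column within 0.485%. The knockdown column carries a name 1 letter away from its library titles and was matched by its shared start. There were 0 further columns of values.

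Of the gene symbols, 26 that had turned into dates were restored and 3 broken rows (0.0872% and 0.0509% of reads) left out. TMM factors (1.01 and 0.991) and the filter (minimum count 10, minimum total 15, leaving 14175 genes) came from edgeR 4.0.16 in R 4.3.3. Poisson intervals of levels, exact conditional (Clopper-Pearson) intervals of ratios and exact conditional intervals of ratios of ratios were at 95%, with scipy 1.17.1. A single read was worth 0.0595 CPM with knockdown and 0.0498 CPM in control cells. Without molecular identifiers the intervals cover counting error only. With 1 column per group, 0 residual degrees of freedom remain and no p-value is given, and likeness of pattern between genes could not be measured. The procedure, without the TMM scaling, was tested on simulated counts drawn with counting error only, which says nothing of variation between cultures.

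The text names the 10 genes, NUPR1, the rest of both families and, of each other group, up to 4 genes past 1.5-fold with a mean of 5 CPM. Cell type markers, and genes said to be picked after their values were seen, fall outside this rule. The genes and lists were chosen with earlier results of these data known. Scaling, pseudocount, filter and gene length were varied, and all counts were halved as the extreme case of counting both mates. AREGB and CBLC are not analysed here, and some listed genes are not reported here.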

Additional observations from a re-analysis of the deposited data

How the results depend on the processing

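No paired analysis was possible because each group has a single deposited column, and for the same reason the layout block and leaving out each library were not run. Each of the 9 genes measured kept its direction in all 8 or 9 alternatives that gave it a value. Most of these alternatives could hardly change a direction. The filters and the halving of counts kept each ratio the same or nearly so, and scaling shifted every gene by at most 0.027. The log2 ratio of ERBB3 ranged from 0.74 to 1.14, EGFR from -0.20 to -0.16, ERBB2 from -0.14 to -0.09, NRG1 from -0.35 to -0.30, EREG from -0.24 to -0.19, ERRFI1 from 0.23 to 0.26, BTC from -0.64 to -0.45, HBEGF from -0.34 to -0.19 and TGFA from 0.20 to 0.48. With log2 of RPKM plus 1, the family's genes past 2-fold numbered 0 in place of 1, and 2 pathway genes in place of 4 were at least 1.5-fold higher, because the pseudocount shrinks the ratios of genes with a low RPKM. PCSK5, GAB2 and PIK3CD were the genes no longer past 1.5-fold there. With at least 5 CPM in both columns PIK3CD was not counted, so its relay had 0 genes past 1.5-fold in place of 1, and the ERK-output median was -0.30 in place of -0.20. Without the 10 most abundant rows receptor attenuation had 2 such genes in place of 1, LRIG1 being added. At least 5 CPM in both columns left BTC, HBEGF and TGFA without a value. The intervals of neighbours lay apart in 15 neighbouring pairs over both columns by RPKM. Ratios of ratios are free of the scaling. Depth limits BTC, HBEGF, TGFA and AREG, each with 105 reads or fewer in either column.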
